A study of Mus musculus with 63 samples.

Results

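The 41 genes described here are genes of the cell division cycle, chosen by symbol for known roles in DNA replication and mitosis. All 41 were found among the 56748 genes listed in the deposited count table, and all 41 were among the 22147 genes that passed a filter on low counts. By role, 15 of them act at the G1/S transition and in replication (9 in origin licensing and the replication fork, 3 in nucleotide supply, 3 in regulation) and 26 act in G2 and mitosis (8 kinases, cyclins and regulators, 6 of the spindle checkpoint and anaphase, 5 of chromosomes and kinetochores, 7 of the spindle and cytokinesis). RNA was sequenced from peritoneal macrophages of mice that carry the R1441C change in Lrrk2 (knock-in), a kinase gene linked to inherited Parkinson's disease, and of B6 wild-type mice. The macrophages were drawn to the peritoneum with 3% thioglycollate for 72 h, then kept in culture with 100 U of interferon gamma or with vehicle for 18 h. All mice received buprenorphine, an opioid against pain. The design text gives ages of 18 to 21 months for old animals and 2 to 3 months for young ones.

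The 63 libraries fall into 16 groups by genotype, sex, age label and treatment label. The knock-in females comprised 5 old-labelled IFN-labelled, 5 old-labelled untreated-labelled, 2 young-labelled IFN-labelled and 5 young-labelled untreated-labelled libraries. The knock-in males comprised 5, 3, 3 and 3 libraries in the same order of labels. The wild-type females comprised 5, 5, 3 and 3 libraries, and the wild-type males 5, 3, 5 and 3. The cells were selected by adherence and washing, and no sort is described, so other adherent peritoneal cells may be present. Nothing states that the replicates of a group came from separate animals, so p-values measure the spread between these libraries, which may be technical.

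A dividing cell first licenses its replication origins by loading the MCM helicase, then makes deoxynucleotides and copies its DNA, and later condenses, aligns and separates its chromosomes. The transcription factors of the E2F family drive the genes of the first step, while the MuvB complex, with MYBL2 and FOXM1, drives those of mitosis. Most macrophages that enter an inflamed peritoneum come from blood monocytes and divide little, while resident macrophages and mesothelial cells can divide in place. In macrophages, interferon gamma is known to hold back proliferation.

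Total counts were between 73.6 M and 106.6 M per library, with a median of 98.2 M and 1 library below 85 M. Macrophage markers summed to 19509 to 39944 CPM (counts scaled to a common library total) in every library. Over all libraries, the interferon gamma response genes did not follow the treatment label. Their summed level was 567 to 21906 CPM in IFN-labelled libraries, against 503 to 24487 CPM in untreated-labelled ones. It was 16132 to 24487 CPM in old-labelled libraries, against 503 to 3246 CPM in young-labelled ones. Within young-labelled wild-type libraries the sum was higher with the IFN label. It was 2444 to 3246 against 503 to 1068 CPM in females, and 1175 to 2476 against 929 to 1087 CPM in males. The treatment labels overlapped within the young-labelled knock-in and all old-labelled pairs of groups. In addition, the 3 libraries of untreated-labelled old-labelled knock-in males carry the treatment tag of interferon gamma in the labels. Cd79a, a B cell gene, was at 4.92 to 311 CPM (median 24.8) in IFN-labelled libraries, against 1.42 to 12.3 CPM (median 4.21) in untreated-labelled ones. The groups are therefore called by their labels throughout. Whether a label names the exposure, or the age and treatment labels were exchanged, was not tested, so an age label value may not be one of age, nor a treatment label value one of interferon gamma.

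The promoters of the members were read for letters known from cell cycle genes. RefSeq promoter windows (the 250 bases before the start, build GRCm38.p6) were matched to 34 of the 41 members, with 36 windows in all. The letters searched on both strands were CCAAT, the cell cycle homology region (TTTGAA or TTCGAA, bound by MuvB) and E2F sites (TTTCCCGC, TTTCGCGC, TTTGCCGC or TTTGGCGC). No match to one motif overlapped a match to another motif, although matches to the same motif on opposite strands can overlap. The 7 windows below are shown as examples that run from several matches to none, and capitals mark the matches.
Top2a: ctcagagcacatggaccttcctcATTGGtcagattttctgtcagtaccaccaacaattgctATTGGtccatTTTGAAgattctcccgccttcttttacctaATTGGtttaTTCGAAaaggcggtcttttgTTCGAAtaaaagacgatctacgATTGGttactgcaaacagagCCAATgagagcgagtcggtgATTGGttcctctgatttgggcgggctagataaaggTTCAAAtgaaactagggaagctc
Ube2c: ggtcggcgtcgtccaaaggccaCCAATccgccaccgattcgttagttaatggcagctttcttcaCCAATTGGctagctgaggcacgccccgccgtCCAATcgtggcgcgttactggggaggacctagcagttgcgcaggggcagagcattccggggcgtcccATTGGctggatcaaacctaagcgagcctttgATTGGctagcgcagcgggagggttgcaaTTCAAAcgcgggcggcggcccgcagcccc
Cdk1: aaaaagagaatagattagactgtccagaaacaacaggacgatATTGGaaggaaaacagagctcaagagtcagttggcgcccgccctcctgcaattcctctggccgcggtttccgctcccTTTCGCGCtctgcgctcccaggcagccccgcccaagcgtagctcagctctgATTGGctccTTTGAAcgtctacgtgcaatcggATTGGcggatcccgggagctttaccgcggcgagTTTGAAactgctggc
Bub1b: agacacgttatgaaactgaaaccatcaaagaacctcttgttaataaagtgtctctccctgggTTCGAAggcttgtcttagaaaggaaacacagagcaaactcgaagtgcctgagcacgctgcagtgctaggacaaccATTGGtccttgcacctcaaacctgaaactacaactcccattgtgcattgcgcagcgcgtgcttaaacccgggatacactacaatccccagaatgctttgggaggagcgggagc
Mcm5: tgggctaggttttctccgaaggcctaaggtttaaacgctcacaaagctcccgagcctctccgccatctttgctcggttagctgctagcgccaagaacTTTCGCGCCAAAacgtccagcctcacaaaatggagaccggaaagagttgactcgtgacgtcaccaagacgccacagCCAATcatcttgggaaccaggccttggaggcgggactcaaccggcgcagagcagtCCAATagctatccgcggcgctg
Mcm6: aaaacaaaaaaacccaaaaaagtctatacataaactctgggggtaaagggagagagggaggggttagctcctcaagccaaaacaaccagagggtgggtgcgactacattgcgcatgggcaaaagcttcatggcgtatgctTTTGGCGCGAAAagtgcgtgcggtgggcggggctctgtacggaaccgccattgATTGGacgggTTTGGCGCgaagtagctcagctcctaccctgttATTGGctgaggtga
Ccne1: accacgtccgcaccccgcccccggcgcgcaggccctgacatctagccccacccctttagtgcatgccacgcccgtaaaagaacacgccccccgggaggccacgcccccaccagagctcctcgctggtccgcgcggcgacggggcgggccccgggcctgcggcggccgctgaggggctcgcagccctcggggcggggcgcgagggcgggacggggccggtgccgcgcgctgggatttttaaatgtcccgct

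The windows lie at chr11:99024190-99024439, minus strand (Top2a), chr2:164769679-164769928, plus strand (Ube2c), chr10:69352913-69353162, minus strand (Cdk1), chr2:118597961-118598210, plus strand (Bub1b), chr8:75109259-75109508, plus strand (Mcm5), chr1:128359706-128359955, minus strand (Mcm6) and chr7:38107491-38107740, minus strand (Ccne1), each printed 5′ to 3′ on the strand of its gene. CCAAT was found in 29 of the 36 member windows (80.6%), against 33.8% of all 32851 windows of this length. The cell cycle homology region was found in 12 member windows (33.3%), against 17.1% of all windows. An E2F site was found in 5 member windows (13.9%), against 1.86% of all windows. By role, CCAAT stood before 19 of 21 matched G2/M genes and 8 of 13 matched G1/S genes, and an E2F site before 1 and 4 of them. The 5 genes with an E2F site were Cdc6, Mcm5, Mcm6, Mcm7 and Cdk1. Top2a held 6 CCAAT and 4 homology matches, Ube2c 6 and 1, Cdk1 3 and 2 with 1 E2F site, and Bub1b 1 and 1. Mcm5 and Mcm6 each held 2 CCAAT matches, with 2 and 3 E2F matches, and the Ccne1 window held none of the letters. These matches are descriptions of the windows and not measurements of binding.

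Per length, levels differed widely among the 41. Pcna, the sliding clamp of DNA polymerase, had 63.9 ± 11.8 FPKM (mean ± SD over the 63 libraries), the highest level. The helicase subunits Mcm3, Mcm6, Mcm4 and Mcm5 had 11.9 ± 2.34, 9.12 ± 1.91, 6.79 ± 1.36 and 5.88 ± 2.74 FPKM, and the transcription factor E2f1 had 8.36 ± 1.07 FPKM. Among mitotic genes, the checkpoint kinase Bub1b had 4.38 ± 1.72 FPKM. Other replication genes were lower than Bub1b, with 1.25 ± 0.448 FPKM for Tk1, 0.776 ± 0.399 for Ccne2, 0.761 ± 0.279 for Tyms and 0.600 ± 0.353 for Cdc6. At the low end, the checkpoint kinase Ttk had 0.338 ± 0.146 FPKM and the kinetochore protein Cenpf 0.108 ± 0.0733 FPKM, with 21 to 494 counts a library for Cenpf. Counting error is therefore a larger share of the spread for Cenpf than for Pcna. Ccna2, Ccne2, Cdc20, Cdc45, Kif20a, Mcm7, Nusap1, Prc1, Tk1 and Ube2c, 10 members in all, overlap a protein-coding gene on the other strand, so their counts are less certain where strand was not used in counting. Foxm1 overlaps genes, and Kif11 a processed pseudogene, on its own strand.

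Across the 63 libraries most members varied together. Correlated with the mean of the other 40 members on the log2 CPM scale once the group means were removed, as a description over libraries of unequal depth, Rrm2 (ribonucleotide reductase, which makes deoxynucleotides) and Ccna2 (cyclin A2) had a Pearson r of 0.99 each. Top2a, the topoisomerase that untangles chromosomes, and Prc1, which bundles the central spindle, each had 0.97. The least alike were Bub1b (0.35), Cenpa, the centromeric histone (0.57), Pcna (0.64), Ccne1, cyclin E1 (0.67), and E2f1 (0.69).

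**Figure D1:**
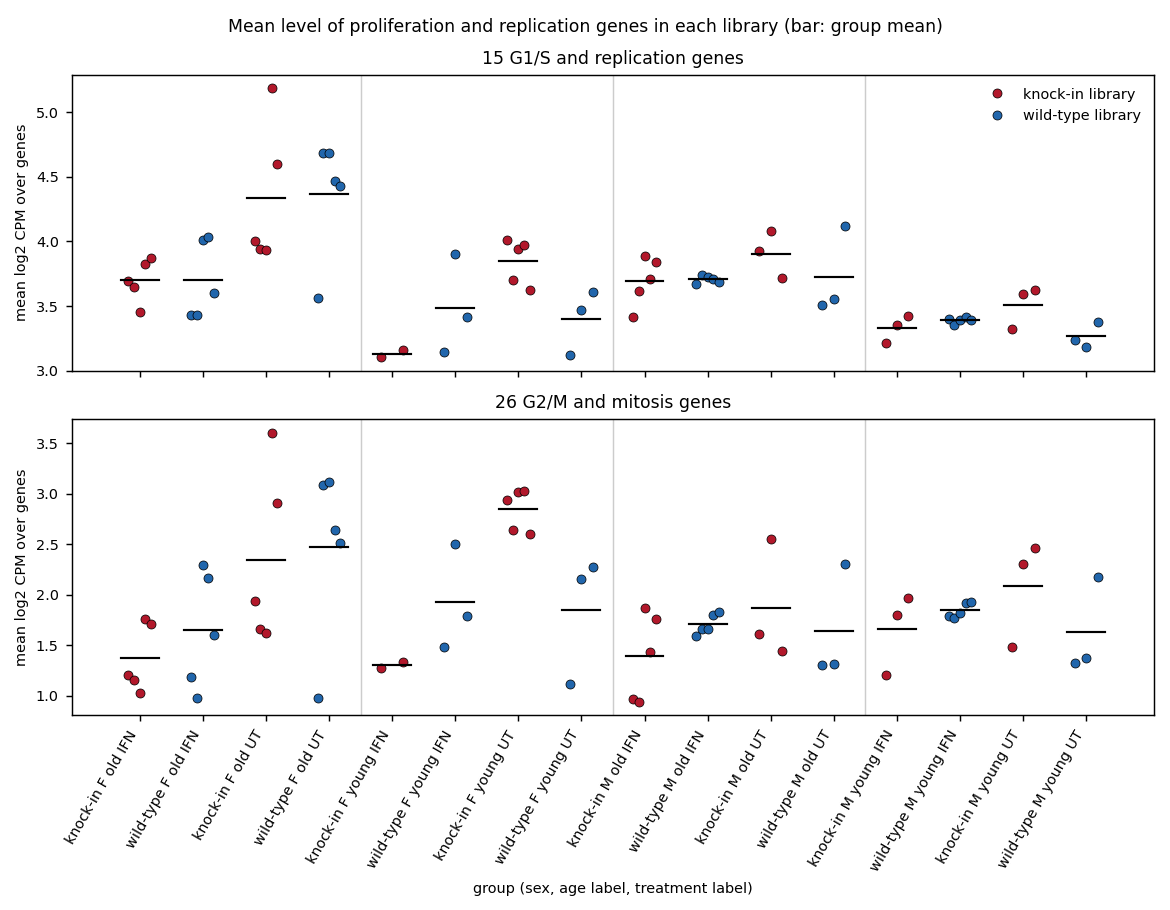
Mean log2 CPM of the 15 G1/S genes and of the 26 G2/M genes in each of the 63 libraries, by group; each point is a library and each bar a group mean. The highest point in both panels is replicate 4 of knock-in old-labelled untreated-labelled females.

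Averaged over the 41 members, the level in knock-in females was 2.23 ± 0.27 log2 CPM (mean ± SD) in old-labelled IFN-labelled and 3.07 ± 0.76 in old-labelled untreated-labelled libraries, and 1.97 ± 0.04 in young-labelled IFN-labelled and 3.21 ± 0.19 in young-labelled untreated-labelled ones. In knock-in males the 4 groups had 2.24 ± 0.34, 2.61 ± 0.44, 2.27 ± 0.29 and 2.61 ± 0.40 in the same order. In wild-type females they had 2.40 ± 0.48, 3.16 ± 0.72, 2.497 ± 0.47 and 2.42 ± 0.49. The group means of wild-type males lay closer together, at 2.44 ± 0.07, 2.41 ± 0.49, 2.41 ± 0.05 and 2.23 ± 0.34. The highest library was replicate 4 of knock-in old-labelled untreated-labelled females, at 4.19, and replicate 1 of the wild-type females with the same labels was at 1.93 while its 4 companions were at 3.22 to 3.69.

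The members moved with markers of another cell type. The summed level of 14 mesothelial and fibroblast markers followed the member mean across the 63 libraries once the group means were removed, with a Pearson r of 0.82 and a Spearman rho of 0.84, and r was 0.83 without the 2 libraries farthest from the median; this is a description over libraries of unequal depth, and no p is given. In knock-in young-labelled females the marker sum was 127 to 141 CPM in IFN-labelled libraries, against 492 to 617 CPM in untreated-labelled ones, with no overlap. In knock-in old-labelled females it was 72.9 to 178 CPM, against 60.3 to 403 CPM, and in knock-in males 62.3 to 166 against 79.3 to 387 CPM (old-labelled) and 202 to 263 against 168 to 528 CPM (young-labelled). Collagens were the highest of these markers, with medians of 83.6 (Col1a2), 65.5 (Col1a1) and 28.9 CPM (Col3a1), so they weigh most in the sum. The mesothelial markers Msln, Lrrn4, Krt19 and Upk3b had medians of 0.554, 0.407, 0.335 and 0.253 CPM. Gene by gene, r with the member mean ran from 0.16 (Gpm6a) to 0.82 (Col1a1), with 0.79 for Wt1, 0.63 for Msln, 0.39 for Krt8 and 0.28 for Krt18. None of the markers was at 0 throughout a group. Upk3b, Lrrn4 and Lum were at 0 in 2, 1 and 7 libraries. Marker sums of other cells followed the member mean less closely, with r of 0.60 for a list of neutrophil and eosinophil markers (8 of 12 passed the filter, without Ly6g, Mpo, Elane and Epx), 0.46 for T and NK cells, 0.43 for macrophages, -0.38 for B cells and -0.47 for erythroid cells, and r was 0.31 for the total count. In bulk RNA, fewer cells of a type and less RNA per cell cannot be told apart, and the part of these cells in the results below was not tested.

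**Figure D2:**
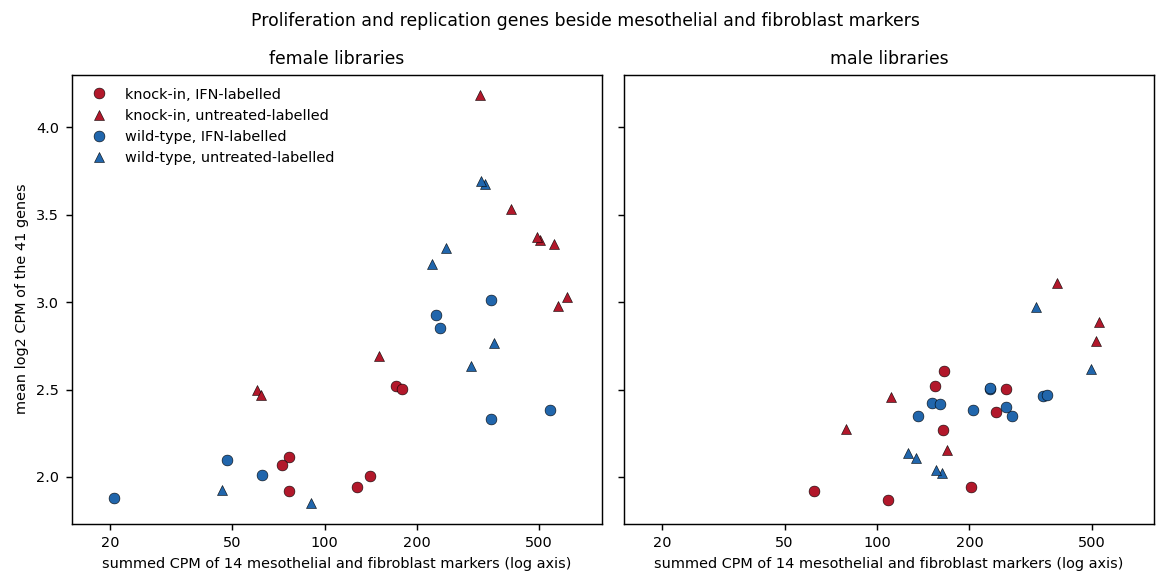
Mean log2 CPM of the 41 members against the summed CPM of 14 mesothelial and fibroblast markers (log axis), one point per library, females and males in separate panels; circles are IFN-labelled, triangles untreated-labelled, red knock-in and blue wild-type. Libraries with a higher marker sum tended to have a higher member mean.

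The first comparison asks how cells labelled as treated with interferon gamma differ from cells labelled untreated within knock-in mice. Of the 41 members, 38 fell in IFN-labelled knock-in libraries and none rose (edgeR quasi-likelihood test, Benjamini-Hochberg adjusted p under 0.05), while 4.42% of all genes tested were called lower and 3.35% higher. The median log2 change of the members was -0.75, against -0.01 over all genes tested. The estimates of all 41 were below 0, with unadjusted p under 0.05 in each. DESeq2 called 39 of them lower. The G2/M genes fell further, with 25 of 26 called and a median of -0.99, than the G1/S genes, with 13 of 15 called and a median of -0.47; the difference between these medians was not tested. Mesothelial and fibroblast markers moved with this contrast, as 6 of the 14 fell and 1 rose, with a median of -0.95. Col1a1, a fibroblast collagen, changed by -1.46 ± 0.38 (adjusted p = 0.0098). Of 15 B cell markers 13 rose, with a median of 2.23, and 7 of 14 T and NK cell markers and 5 of 6 erythroid markers rose. The T and NK cell marker sums overlapped between the treatment labels. In females they were 187 to 252 CPM in IFN-labelled against 217 to 298 CPM in untreated-labelled libraries (old-labelled), and 491 to 598 against 576 to 695 CPM (young-labelled). In males they were 217 to 321 against 217 to 371 CPM, and 430 to 684 against 432 to 628 CPM.

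Among genes of licensing and the fork, 8 of 9 fell, with a median of -0.39. Cdc6, which loads the helicase on origins, changed by -0.74 ± 0.17 (adjusted p = 0.0024) on the log2 scale (± SE). Mcm5, a subunit of the helicase ring, changed by -0.58 ± 0.11 (adjusted p = 0.00026). Its level in knock-in old-labelled females was 26.7, 24.9, 22.7, 25.5 and 28.3 CPM in IFN-labelled libraries, against 32.4, 29.6, 32.0, 75.2 and 47.4 CPM in untreated-labelled ones. In the young-labelled females Mcm5 had 11.6 and 11.6 CPM, against 27.9, 19.3, 23.2, 22.2 and 17.1 CPM. In males it had 20.5, 23.7, 25.9, 24.3 and 23.3 CPM against 30.7, 30.4 and 27.4 CPM (old-labelled) and 13.5, 13.8 and 14.7 CPM against 16.5, 18.0 and 17.4 CPM (young-labelled). In each of these pairs of groups every IFN-labelled library lay below every untreated-labelled one. The other subunits Mcm7, Mcm2, Mcm4, Mcm3 and Mcm6 changed by -0.51, -0.39, -0.34, -0.30 and -0.30, and Cdc45, which joins the ring to form the active helicase, by -0.53. Pcna was the member of this group that missed the threshold, at -0.19 ± 0.07 (adjusted p = 0.11); its levels were 149 to 172 CPM in IFN-labelled against 151 to 259 CPM in untreated-labelled old-labelled knock-in females, which overlap.

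The nucleotide genes Rrm2, Tyms (thymidylate synthase) and Tk1 (thymidine kinase) all fell, with changes of -1.04 ± 0.24, -0.60 ± 0.14 and -0.47 ± 0.11. Rrm2 had 5.88, 5.57, 4.94, 10.4 and 9.89 CPM in IFN-labelled old-labelled knock-in females, against 10.9, 9.57, 9.49, 49.2 and 25.7 CPM in the untreated-labelled ones. In the young-labelled females Rrm2 had 3.82 and 3.94 CPM, against 13.8, 9.66, 14.1, 13.9 and 9.17 CPM. The old-labelled groups overlap at their edge, with replicates 4 and 5 of the untreated-labelled group well above the rest, and the young-labelled groups do not overlap. Of the G1/S regulators, Ccne1, which starts replication with CDK2, changed by -0.35 ± 0.09 (adjusted p = 0.0092), and E2f1, the activator of S phase genes, by -0.19 ± 0.05 (adjusted p = 0.014). Ccne2, the second cyclin E, was at -0.48 ± 0.16 (adjusted p = 0.062) and was not called. E2f1 had 23.1 and 20.6 CPM in IFN-labelled young-labelled knock-in females, against 29.9, 27.3, 26.5, 27.0 and 28.1 CPM in untreated-labelled ones. These E2f1 groups do not overlap. Ccne1 had 2.27 and 2.98 CPM in the IFN-labelled young-labelled females, against 3.89, 3.39, 3.93, 5.00 and 3.46 CPM in the untreated-labelled ones, and 7.72, 9.25, 8.69, 8.41 and 8.86 CPM, against 8.63, 9.001, 8.61, 18.2 and 12.9 CPM, in the old-labelled ones. It overlaps in the old-labelled females and not in the young-labelled ones.

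All 8 G2/M kinases, cyclins and regulators fell, with a median of -0.99. The B-type cyclins that activate CDK1, Ccnb2 and Ccnb1, changed by -1.27 ± 0.27 (adjusted p = 0.0014) and -1.08 ± 0.21 (adjusted p = 0.0005). Ccnb1 had 2.42, 2.31, 2.51, 3.79 and 3.52 CPM in IFN-labelled old-labelled knock-in females, against 4.27, 3.80, 2.98, 13.4 and 8.997 CPM in untreated-labelled ones. In the young-labelled females it had 1.88 and 1.91 CPM, against 8.98, 6.87, 8.70, 9.12 and 6.35 CPM. The old-labelled groups overlap and the young-labelled ones do not. Cdk1, the mitotic kinase itself, changed by -0.90 ± 0.19 (adjusted p = 0.0015), with 3.19 and 3.00 CPM in IFN-labelled young-labelled females, against 10.4, 8.505, 9.95, 9.86 and 6.65 CPM in untreated-labelled ones. Ccna2 changed by -1.16 ± 0.26 (adjusted p = 0.0024), Plk1, a kinase of spindle poles and mitotic exit, by -1.09, and the Aurora kinases Aurka and Aurkb by -0.75 and -0.68. Foxm1, the transcription factor of mitotic genes, changed by -0.75 ± 0.14 (adjusted p = 0.00033). It had 3.39 and 2.85 CPM in IFN-labelled young-labelled females, against 7.37, 5.29, 7.79, 6.95 and 6.20 CPM in untreated-labelled ones, and these do not overlap.

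All 6 genes of the spindle checkpoint and anaphase fell, with a median of -1.04. Ube2c, the ubiquitin-conjugating enzyme of the anaphase-promoting complex, changed by -1.28 ± 0.29 (adjusted p = 0.0023). Birc5 (survivin, a subunit of the chromosomal passenger complex), the checkpoint kinases Bub1, Ttk and Bub1b, and Cdc20, the activator of the anaphase-promoting complex, changed by -1.09, -1.05, -0.82, -0.35 and -1.03. Ube2c had 0.860 and 1.04 CPM in IFN-labelled young-labelled knock-in females, against 5.91, 5.04, 5.70, 5.60 and 3.62 CPM in untreated-labelled ones, with no overlap.

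Of the 5 chromosome and kinetochore genes, 4 fell. Cenpf changed by -1.37 ± 0.28 (adjusted p = 0.00097), Top2a by -1.02 ± 0.23 (adjusted p = 0.0028), the kinetochore motor Cenpe by -0.79 and Mki67, the gene of the proliferation antigen Ki-67, by -0.67 ± 0.15 (adjusted p = 0.0022). Cenpa was not called, at -0.19 ± 0.08 (adjusted p = 0.14). Mki67 had 11.5, 11.6, 10.9, 11.9 and 12.7 CPM in IFN-labelled old-labelled knock-in females, against 27.2, 17.6, 15.3, 29.4 and 22.0 CPM in untreated-labelled ones. In the young-labelled females it had 12.5 and 13.5 CPM, against 22.7, 22.3, 30.5, 29.2 and 30.3 CPM. At both age labels the 2 groups of females do not overlap. In knock-in males Mki67 had 11.1, 12.8, 15.9, 12.0 and 13.3 CPM against 16.1, 26.5 and 14.9 CPM (old-labelled) and 10.5, 13.6 and 14.1 CPM against 8.17, 16.8 and 16.6 CPM (young-labelled), and these overlap. Top2a had 9.72, 9.45, 6.68, 14.2 and 13.9 CPM in IFN-labelled old-labelled females, against 22.2, 14.9, 12.3, 62.7 and 36.2 CPM in untreated-labelled ones, and 8.55 and 8.88 CPM, against 24.5, 21.5, 29.5, 29.1 and 22.7 CPM, in the young-labelled ones. The old-labelled Top2a groups overlap, the young-labelled ones do not.

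All 7 spindle and cytokinesis genes fell, with a median of -0.97. Hmmr, a spindle assembly factor, changed by -1.36 ± 0.28 (adjusted p = 0.00094) and Tpx2, which activates Aurora A on the spindle, by -0.70 ± 0.12 (adjusted p = 0.00011). Nusap1, which stabilises microtubules near chromosomes, and Prc1 changed by -1.11 and -1.06. The kinesins Kif11, Kif20a and Kif23, which separate spindle poles and build the midzone, changed by -0.97, -0.92 and -0.86. The number of members called lower lay between 34 and 39 when each library was left out in turn.

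**Figure D3:**
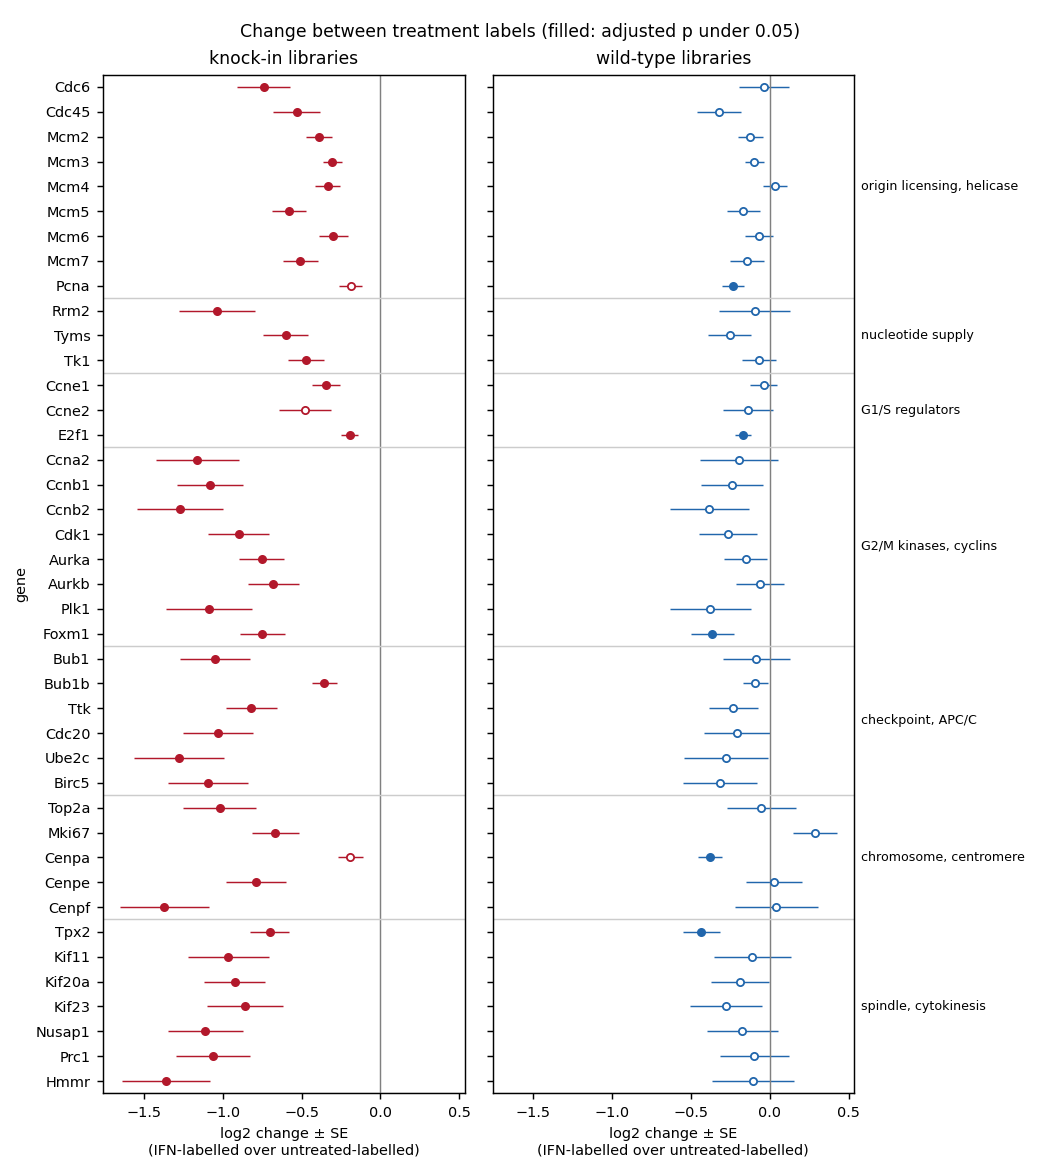
Log2 change, IFN-labelled over untreated-labelled, of each of the 41 members (± SE), knock-in on the left and wild-type on the right; filled points have an adjusted p under 0.05. In knock-in 38 of the points are filled and all lie below 0, and in wild-type 5 are filled.

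Split by sex and age label, the knock-in strata with called members were those of females. In old-labelled females 33 members fell, with a median of -1.03, against 3.78% of all genes lower and 2.77% higher. In young-labelled females 32 fell, with a median of -1.21, against 10.1% of all genes lower and 11.8% higher. There Ube2c, Hmmr and Plk1 changed by -2.45 ± 0.67 (adjusted p = 0.0079), -2.41 ± 0.66 (adjusted p = 0.0075) and -2.31 ± 0.65 (adjusted p = 0.009). In old-labelled males edgeR called no member, with 2 at an unadjusted p under 0.05 and none called by DESeq2, against 0.0587% of all genes lower and 0.117% higher, and the median was -0.38. In young-labelled males edgeR called none, with none at an unadjusted p under 0.05 and none called by DESeq2, against 0.0316% of all genes lower and 0.0497% higher, and the median was again -0.38. The estimates of 40 members were below 0 in all 4 splits. A test of the difference between females and males, added after these counts were seen, called none (27 at an unadjusted p under 0.05, with all 41 estimates lower in females and a median of -0.75), against 0.0181% of all genes lower and 0.0181% higher, so the sexes were not shown to differ. The split counts rest on few libraries: the 33 became 9 without replicate 4 of the untreated-labelled old-labelled females, and 11, 16 and 17 without replicates 3, 1 and 2 of the IFN-labelled ones, and the 32 became 3 or 2 without either of the 2 IFN-labelled young-labelled females.

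In knock-in males the treatment labels overlapped for the mitotic genes set out next. Top2a had 7.20, 7.85, 17.2, 12.7 and 14.8 CPM in IFN-labelled old-labelled males, against 11.6, 30.7 and 10.8 CPM in untreated-labelled ones. Ccnb1 had 1.98, 2.37, 4.29, 3.17 and 3.88 CPM, against 3.71, 6.89 and 2.93 CPM, and Cdk1 2.67, 3.41, 5.57, 5.04 and 5.12 CPM, against 5.62, 7.98 and 5.16 CPM, in the same groups. Replicate 4 of the untreated-labelled group was the highest for all 3 genes. In young-labelled males Top2a had 7.98, 10.1 and 13.1 CPM in IFN-labelled libraries, against 9.18, 17.1 and 17.7 CPM in untreated-labelled ones, and Foxm1 3.14, 3.45 and 3.91 CPM, against 3.16, 5.08 and 5.75 CPM. Both overlap.

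In wild-type mice the same contrast called 5 members lower and none higher, against 15.9% of all genes lower and 15.4% higher. They were Tpx2 (-0.44 ± 0.12, adjusted p = 0.0033), Cenpa (-0.38 ± 0.08, adjusted p = 0.00015), Foxm1 (-0.36 ± 0.14, adjusted p = 0.034), Pcna (-0.23 ± 0.07, adjusted p = 0.01) and E2f1 (-0.17 ± 0.05, adjusted p = 0.0079). The median of the members was -0.15, against -0.01 over all genes, and 7 had an unadjusted p under 0.05. Mki67 was at 0.29 ± 0.14 (adjusted p = 0.11). Pcna had 133, 85.8, 154, 163 and 138 CPM in IFN-labelled old-labelled wild-type females, against 187, 204, 207, 183 and 199.9 CPM in untreated-labelled ones, and Foxm1 had 2.98, 3.54, 3.18, 3.45 and 3.44 CPM in IFN-labelled old-labelled wild-type males, against 4.10, 4.13 and 5.80 CPM in untreated-labelled ones. Neither gene overlaps in its pair of groups, which is a different stratum for each gene. Over the 8 strata of both genotypes, the Foxm1 estimate was below 0 in 6, of which 4 were knock-in strata. The Pcna estimate was below 0 in 6, of which 3 were knock-in strata. Without a library, the wild-type call was lost in 13 of 32 fits for Foxm1 and in 1 of 32 for Pcna. The share of members called was below that of all genes. The count became 2 without replicate 1 of the IFN-labelled young-labelled wild-type females.

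Of the wild-type strata, the old-labelled females held the most calls. In them 30 members fell, with a median of -0.80, against 11.0% of all genes lower and 9.13% higher. Ube2c, Rrm2, Ccna2 and Plk1 changed by -1.31 ± 0.45 (adjusted p = 0.03), -1.31, -1.29 and -1.21. Mki67 was not among them, at -0.12 ± 0.24 (adjusted p = 0.78), with 14.1, 9.99, 30.3, 21.4 and 16.1 CPM in IFN-labelled libraries, against 8.83, 25.6, 26.1, 23.9 and 15.6 CPM in untreated-labelled ones. Top2a was at -0.997 ± 0.38 (adjusted p = 0.053), with 9.06, 8.99, 24.5, 19.95 and 13.4 CPM against 5.37, 42.1, 45.2, 31.0 and 27.8 CPM. Both genes overlap between the groups, and replicate 1 of the untreated-labelled group was the lowest of its group for each. The mesothelial and fibroblast marker sum was 20.6 to 348 CPM in the IFN-labelled libraries, against 46.3 to 333 CPM in the untreated-labelled ones. The count of 30 became 12 and 18 without replicate 2 or 5 of the IFN-labelled group, 17 without replicate 2 or 3 of the untreated-labelled group, and 15 when libraries with like antigen receptor segment use were summed.

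In the young-labelled wild-type females 1 member rose and 1 fell, against 10.0% of all genes higher and 6.52% lower. Ccne1 changed by 0.63 ± 0.20 (adjusted p = 0.018), with 4.21, 5.15 and 3.52 CPM in IFN-labelled libraries, against 1.87, 3.16 and 3.27 CPM in untreated-labelled ones. Cenpa changed by -0.48 ± 0.17 (adjusted p = 0.043), with 14.9, 16.3 and 14.1 CPM against 23.1, 18.0 and 22.3 CPM. Neither gene overlaps between the 2 groups. Both calls were lost without replicate 1 of either group, that of Cenpa also without replicate 5 of either group, and that of Ccne1 without replicate 2 of the IFN-labelled group. In wild-type males edgeR called no member at either age label, with 1 (old-labelled) and 0 (young-labelled) at an unadjusted p under 0.05 and none called by DESeq2, against 1.81% and 0.0587% of all genes lower and 1.08% and 0.379% higher. A test of whether the contrast differed between old-labelled and young-labelled wild-type females, added after these counts were seen, called Ccne1 alone (-1.25 ± 0.24, adjusted p = 0.0011), with 17 members at an unadjusted p under 0.05 and a median of -0.94, against 1.54% of all genes lower and 0.244% higher. The like tests of sex within wild-type, and of age label within knock-in females, called none, with 5 and 0 at an unadjusted p under 0.05, against 0.488% and 8.78% of all genes lower and 1.46% and 7.33% higher; DESeq2 was not run on these added tests.

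**Figure D4:**
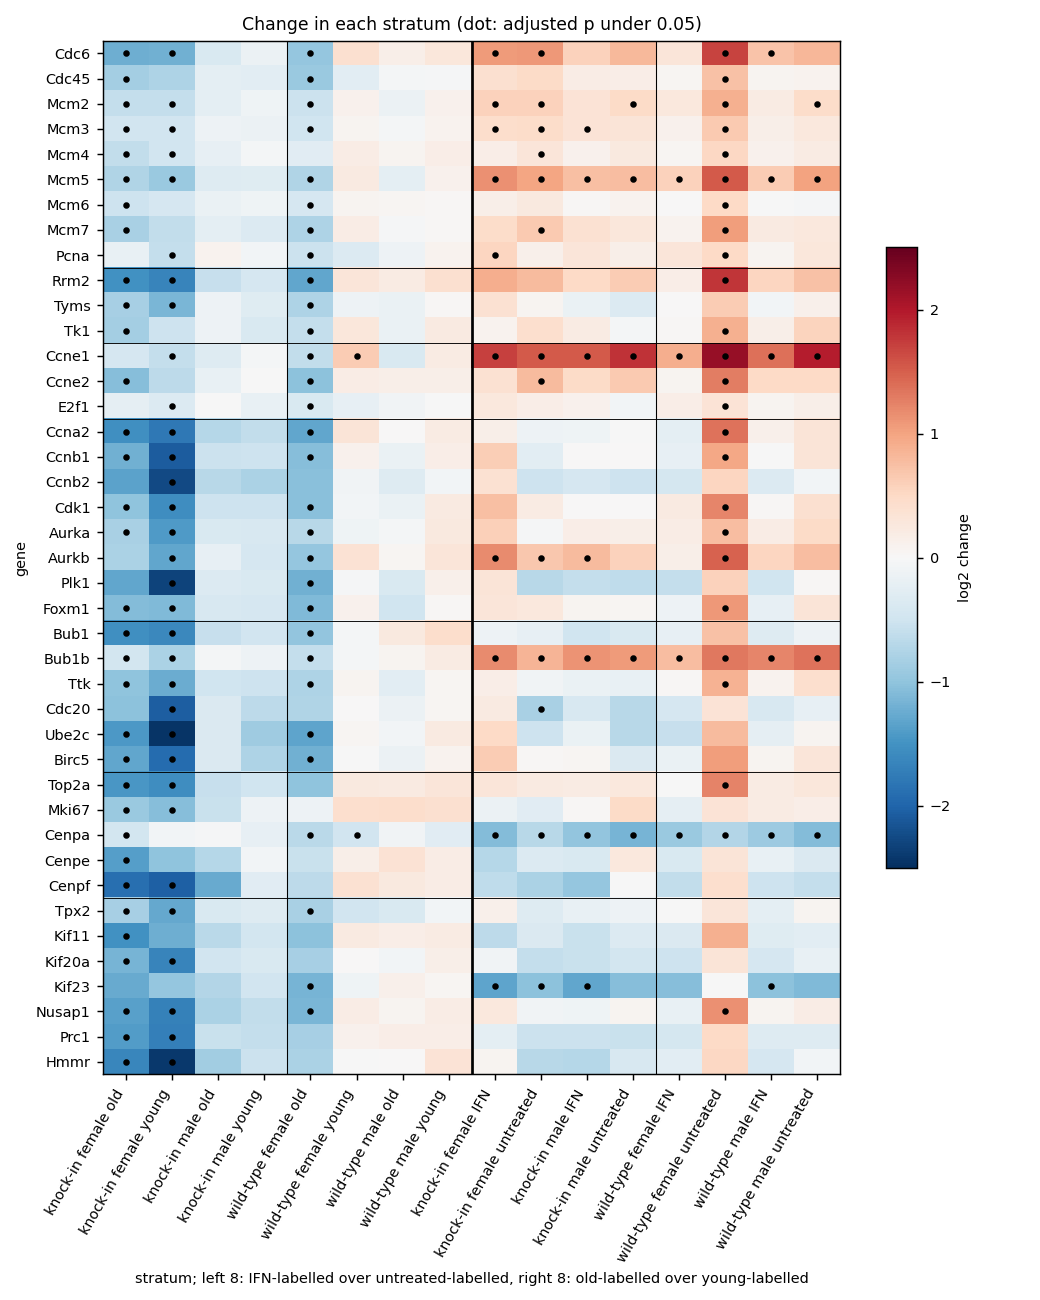
Log2 change of each of the 41 members in 16 strata, the 8 on the left IFN-labelled over untreated-labelled and the 8 on the right old-labelled over young-labelled; a dot marks an adjusted p under 0.05. Dots for the treatment label gather in knock-in females of both age labels and in old-labelled wild-type females.

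Whether the treatment contrast differed between the genotypes was tested as an interaction. It was lower in knock-in than in wild-type for 11 members and higher for none, against 5.58% of all genes lower and 6.36% higher. The median difference was -0.62, against -0.01 over all genes, 39 estimates were below 0 and 30 had an unadjusted p under 0.05. The 11 were Cenpf (-1.41 ± 0.39), Hmmr (-1.25 ± 0.38), Top2a (-0.97 ± 0.32), Bub1 (-0.97 ± 0.31), Prc1 (-0.96 ± 0.32), Mki67 (-0.95 ± 0.20), Ccnb1 (-0.84 ± 0.29), Cenpe (-0.82 ± 0.26), Cdc6 (-0.71 ± 0.23), Aurka (-0.60 ± 0.20) and Mcm4 (-0.37 ± 0.11). Mki67 had the smallest adjusted p, 0.0027. Most of these genes act in mitosis, and Cdc6 and Mcm4 load and form the replicative helicase. The count became 24 with DESeq2, 3 without replicate 4 of the old-labelled untreated-labelled knock-in males and 0 when libraries with like antigen receptor segment use were summed.

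By stratum, a test added after the above was seen called 10 members in young-labelled females, all lower, with 32 at an unadjusted p under 0.05 and a median of -1.31, against 5.36% of all genes lower and 6.05% higher. They included Cenpf (-2.43 ± 0.84, adjusted p = 0.049), Ccnb1 (-2.19 ± 0.66, adjusted p = 0.024), Mki67 (-1.48 ± 0.46, adjusted p = 0.028) and Ccne1 (-1.22 ± 0.29, adjusted p = 0.0036). In old-labelled females edgeR called none, with 1 at an unadjusted p under 0.05 and a median of -0.11, against 4.31% of all genes lower and 6.49% higher; DESeq2 was not run on this test. For Mki67 in young-labelled females, the IFN-labelled levels were 12.5 and 13.5 CPM in knock-in and 21.4, 24.9 and 17.7 CPM in wild-type, and the untreated-labelled levels 22.7, 22.3, 30.5, 29.2 and 30.3 CPM in knock-in and 8.32, 23.6 and 15.7 CPM in wild-type. The mesothelial and fibroblast marker sum was 127 to 141 CPM in the IFN-labelled and 492 to 617 CPM in the untreated-labelled knock-in libraries, and 48.0 to 543 and 90.5 to 357 CPM in the wild-type ones.

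The age label gave calls in both directions. Some old-labelled and young-labelled libraries had like antigen receptor segment use (r over 0.4 in 17 of 97 and 8 of 26 pairs with unlike and like replicate numbers). They entered these tests as separate samples, as did the 16 of 102 pairs within a group that had like use. The p-values take no account of this and may be too small or too large. In old-labelled against young-labelled knock-in libraries 13 members rose and 2 fell, against 28.1% of all genes higher and 32.7% lower. In wild-type 17 rose and 2 fell, against 28.4% higher and 33.8% lower. The median of the members was 0.09 in knock-in and 0.27 in wild-type, against -0.05 and -0.08 over all genes, and the same 15 members were called in both genotypes. The rise lay with the G1/S genes: 11 of 15 rose in knock-in (median 0.39) and 12 in wild-type (median 0.41). Of the 26 G2/M genes 2 rose and 2 fell in knock-in, and 5 rose and 2 fell in wild-type. The share of members called lower was below that of all genes in both genotypes, and the share called higher was near it in knock-in and above it in wild-type. Of the 14 mesothelial and fibroblast markers, 10 fell with the age label in both genotypes. Other marker sums moved with it too. Resident peritoneal macrophage markers summed to 379 to 2405 CPM (median 562) in old-labelled libraries, against 922 to 4207 CPM (median 1082) in young-labelled ones, and T and NK cell markers to 40.3 to 371 CPM (median 235), against 84.1 to 695 CPM (median 574). Markers of monocyte-derived cells summed to 536 to 1145 CPM (median 786) in old-labelled libraries, against 333 to 652 CPM (median 394) in young-labelled ones, and dendritic cell markers to 34.6 to 208 CPM (median 146), against 20.5 to 45.4 CPM (median 29.2). Neutrophil and eosinophil markers summed to 35.9 to 94.5 CPM (median 61.8) in old-labelled libraries, against 18.4 to 40.3 CPM (median 30.4) in young-labelled ones. Each of these pairs of ranges overlaps, and the part of these cells in the age label results was not tested.

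Ccne1 rose most, by 1.65 ± 0.09 (adjusted p = 6.4e-22) in knock-in and 1.61 ± 0.09 (adjusted p = 1.9e-22) in wild-type. Its level was 6.58 to 18.2 CPM (median 8.62) in the 36 old-labelled libraries, against 1.87 to 5.15 CPM (median 2.90) in the 27 young-labelled libraries. Of the 41 members it was the only one whose old-labelled and young-labelled ranges do not overlap. Bub1b changed by 1.06 ± 0.08 in knock-in and 1.17 ± 0.08 in wild-type, with 12.0 to 36.2 CPM (median 24.2) in the 36 old-labelled libraries, against 8.31 to 18.7 CPM (median 10.8) in the 27 young-labelled libraries. Mcm5 changed by 0.91 ± 0.11 and 0.94 ± 0.10 in the same order, with 19.0 to 75.2 CPM (median 25.7) in the 36 old-labelled libraries, against 11.6 to 27.9 CPM (median 13.8) in the 27 young-labelled libraries. These 3 genes were called higher in all 8 strata of genotype, sex and treatment label. Cdc6 changed by 0.89 ± 0.17 and 0.88 ± 0.16, Aurkb by 0.80 ± 0.16 and 0.73 ± 0.16, and Rrm2 by 0.71 ± 0.24 and 0.80 ± 0.23 in knock-in and wild-type. The other members called higher in both were Ccne2, Mcm2, Mcm7, Mcm3, Pcna, Mcm4 and E2f1, at 0.12 to 0.58 in knock-in. The knock-in call of E2f1 was lost in 15 of 31 fits without a library, and E2f1 was called higher in 1 of 8 strata.

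Cenpa and Kif23 went the other way. Cenpa changed by -0.98 ± 0.08 (adjusted p = 6.4e-16) in knock-in and -0.91 ± 0.08 (adjusted p = 3.2e-15) in wild-type, with 5.93 to 15.1 CPM (median 9.14) in the 36 old-labelled libraries, against 13.99 to 23.1 CPM (median 18.3) in the 27 young-labelled libraries, and it was called lower in all 8 strata. Kif23 changed by -1.18 ± 0.23 (adjusted p = 1.9e-05) and -0.80 ± 0.23 (adjusted p = 0.002), with 0.689 to 7.97 CPM (median 1.70) in the 36 old-labelled libraries, against 2.04 to 8.40 CPM (median 3.89) in the 27 young-labelled libraries, and was called in 4 strata. The ranges of both overlap between the age labels. Mki67 and Top2a were not called in either genotype, at 0.02 ± 0.15 and 0.25 ± 0.23 in knock-in and 0.13 ± 0.14 and 0.43 ± 0.22 in wild-type.

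By stratum, untreated-labelled wild-type females held the most age label calls, with 24 members higher and 1 lower (median 0.77), against 22.0% and 22.5% of all genes. Besides Ccne1 (2.17 ± 0.18), Rrm2 (1.78 ± 0.48), Cdc6 (1.68 ± 0.32) and Ccna2 (1.36 ± 0.50) rose there. The total of 25 became 15 without replicate 1 of the young-labelled group. In untreated-labelled knock-in females 10 rose and 3 fell, against 22.0% and 22.8% of all genes, and without replicate 4 of the old-labelled group 6 rose and 12 fell. In IFN-labelled knock-in females 8 rose and 2 fell, against 23.0% and 26.4% of all genes, and in IFN-labelled wild-type females 3 rose and 1 fell, against 17.8% and 19.2% of all genes. In IFN-labelled males 5 rose and 2 fell in knock-in, against 18.4% and 17.1% of all genes, and 4 rose and 2 fell in wild-type, against 19.3% and 20.1% of all genes. In untreated-labelled males 4 rose and 1 fell in each genotype, against 16.4% and 15.7% of all genes in knock-in and 18.7% and 18.1% of all genes in wild-type. Of these counts, that of IFN-labelled knock-in females became 3 higher and 1 lower without replicate 1 of the young-labelled group, and that of IFN-labelled wild-type females 6 higher and 1 lower without replicate 2 of the young-labelled group. That of IFN-labelled knock-in males became 3 higher and 1 lower without replicate 3 of the young-labelled group, and that of untreated-labelled wild-type males 7 higher and 1 lower without replicate 2 of the old-labelled group.

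**Figure D5:**
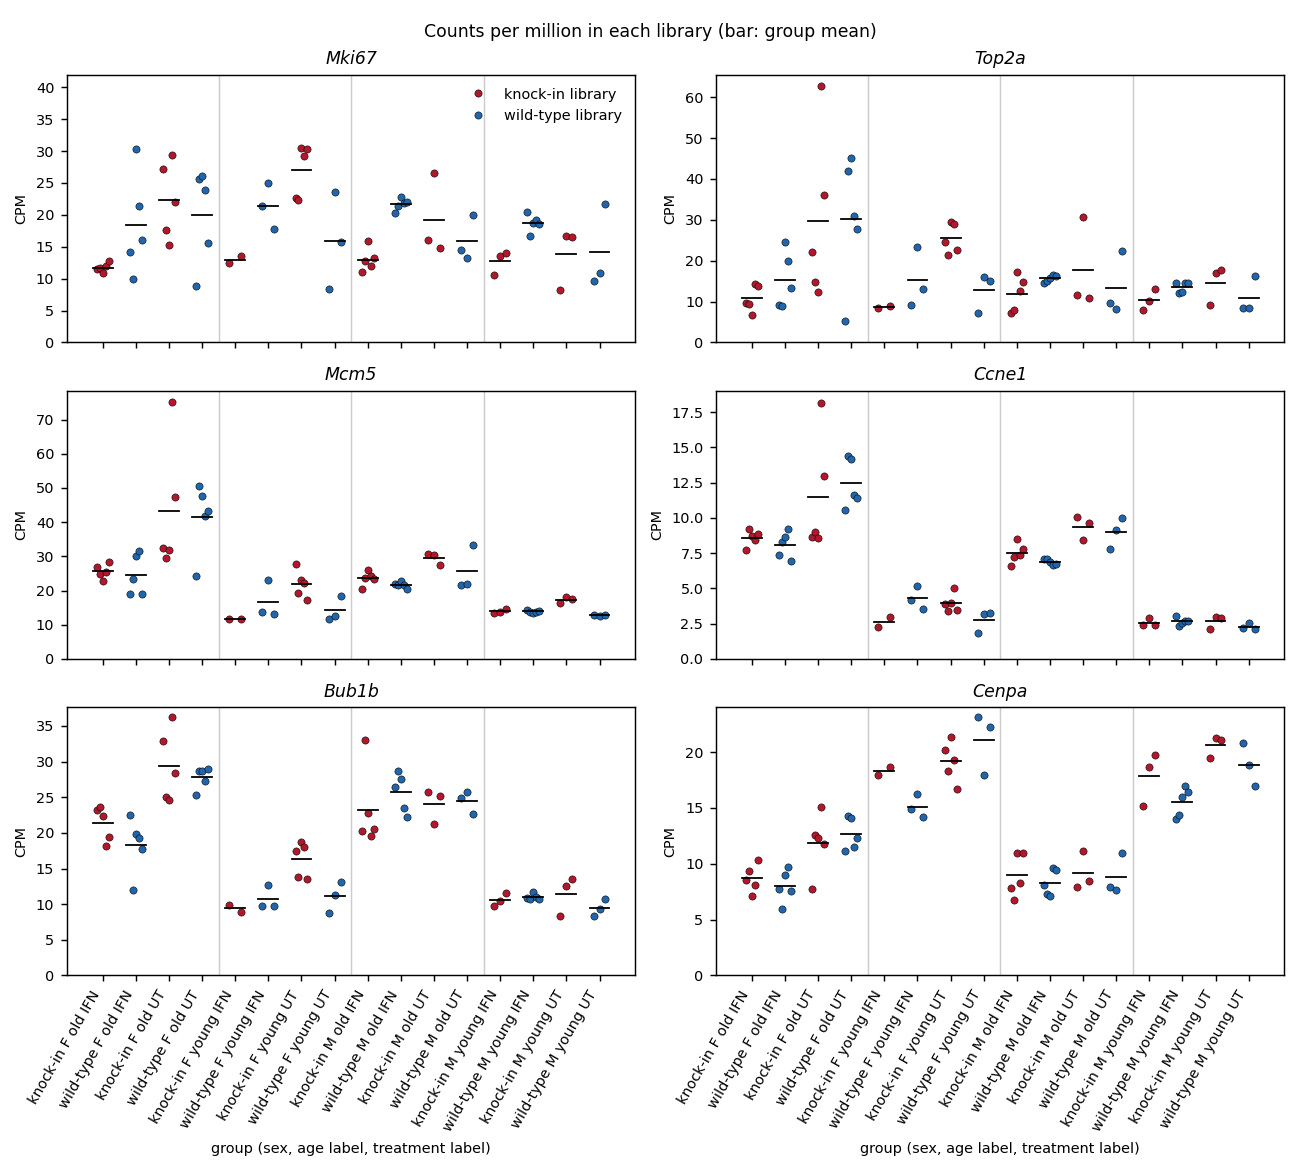
CPM of Mki67, Top2a, Mcm5, Ccne1, Bub1b and Cenpa in each of the 63 libraries by group, one panel per gene. Ccne1 separates the old-labelled from the young-labelled libraries, while Mki67 and Top2a do not.

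Females and males were compared over the 8 strata of genotype, age label and treatment label. In females 8 members were higher and none lower, against 7.13% of all genes higher and 6.45% lower. The estimates of 40 of the 41 were above 0, with 22 at an unadjusted p under 0.05 and a median of 0.27, against 0.00 over all genes. Ccne1 (0.34 ± 0.06, adjusted p = 0.00019) and Tk1 (0.37 ± 0.08, adjusted p = 0.00094) had the smallest adjusted p. Ccne2, Cdc6, Foxm1, Mcm7, Mcm5 and Tpx2 were the others, at 0.37, 0.33, 0.31, 0.28, 0.25 and 0.24. Cdc6 and Tpx2 lay near the threshold by edgeR (adjusted p = 0.0463 and 0.0455). The call of Cdc6 was lost in 35 of 63 fits without a library. The count of 8 became 12 with DESeq2, 2 without the 3 libraries whose tags conflict, and 5 to 16 when each library was left out. It was 5 without replicate 1 of the IFN-labelled young-labelled knock-in females. Without replicate 5 of the untreated-labelled old-labelled wild-type males it was 13, and without replicate 4 of the knock-in males with the same labels 15. Without replicate 1 of the untreated-labelled old-labelled wild-type females it was 16. Of the sex checks, Xist, the RNA of the inactive X, was at 1.55 to 562 CPM (median 205) in female-labelled libraries, against 0 to 14.7 CPM (median 0.367) in male-labelled ones, and these ranges overlap. Ddx3y, a Y-linked gene, was at 0 to 8.93 CPM in female-labelled libraries, against 33.9 to 67.9 CPM in male-labelled ones.

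Knock-in against wild-type, averaged over the 8 strata, gave no called member by edgeR, with 2 at an unadjusted p under 0.05 and 1 called by DESeq2, against 0.483% of all genes higher and 0.673% lower. The median of the members was 0.03. Of the 8 strata, 1 had a call. In IFN-labelled young-labelled females Ccne1 changed by -0.71 ± 0.22 (adjusted p = 0.041), against 6.74% of all genes called in either direction, with 2.27 and 2.98 CPM in knock-in and 4.21, 5.15 and 3.52 CPM in wild-type, and the call was lost without either knock-in library or without replicate 1 or 2 of the wild-type ones. In untreated-labelled young-labelled females edgeR called none, while 30 had an unadjusted p under 0.05, 40 estimates lay above 0, the median was 0.79, DESeq2 called 1, and 0.452% of all genes were called in either direction. There Top2a had 24.5, 21.5, 29.5, 29.1 and 22.7 CPM in knock-in, against 7.31, 15.9 and 15.1 CPM in wild-type, and was at 0.99 ± 0.45 (adjusted p = 0.28). The groups do not overlap for Top2a, and overlap for Mki67 (22.7, 22.3, 30.5, 29.2 and 30.3 CPM in knock-in against 8.32, 23.6 and 15.7 CPM in wild-type). The mesothelial and fibroblast marker sum was 492 to 617 CPM in these knock-in libraries, against 90.5 to 357 CPM in the wild-type ones. In the other 6 strata edgeR called no member. In old-labelled females, 3 (IFN-labelled) and 0 (untreated-labelled) had an unadjusted p under 0.05 and DESeq2 called none, against 5.81% and 0.0181% of all genes called in either direction. In old-labelled males, 2 (IFN-labelled) and 0 (untreated-labelled) had an unadjusted p under 0.05 and DESeq2 called 1 and none, against 6.64% and 0.00452%. In young-labelled males, 0 (IFN-labelled) and 1 (untreated-labelled) had an unadjusted p under 0.05 and DESeq2 called none, against 0.149% and 0.0135%. The tests of whether the genotype difference depends on age label or on sex called no member with edgeR or DESeq2 and had none at an unadjusted p under 0.05, against 0% and 0% of all genes called higher.

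Other genes of the same pathways were followed as lists. Their counts stand against 4.42% of all genes lower and 3.35% higher with the treatment label in knock-in, and 15.9% and 15.4% in wild-type. With the age label the shares of all genes were 28.1% higher and 32.7% lower in knock-in, and 28.4% and 33.8% in wild-type. Of 45 further replication genes, 23 fell and none rose with the treatment label in knock-in (median -0.26), among them Uhrf1, which keeps DNA methylation at the fork (-0.87 ± 0.14, adjusted p = 4.6e-05). In wild-type 1 rose and 11 fell. With the age label 31 rose and 3 fell in knock-in and 33 rose and 3 fell in wild-type, with medians of 0.39 and 0.35. Pola2, a subunit of the priming polymerase, changed by 1.45 ± 0.07 in knock-in. Of 52 further mitosis genes, 40 fell and none rose with the treatment label in knock-in (median -0.69), among them the chromosome kinesin Kif4 (-1.32 ± 0.26, adjusted p = 0.00044), and in wild-type 1 rose and 1 fell. With the age label 8 rose and 8 fell in knock-in, and 15 rose and 6 fell in wild-type.

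Upstream regulators were called in both directions, and with the age label most genes tested were called in either direction (28.1% higher and 32.7% lower in knock-in). Of 7 CDK inhibitors, 3 rose and 4 fell with the age label in each genotype. Cdkn1c (p57) changed by -3.22 ± 0.17 in knock-in and -2.98 ± 0.17 in wild-type, and Cdkn1a (p21) changed by 0.44 ± 0.10 and 0.37 ± 0.09. With the treatment label in knock-in, Cdkn2a (p16 and p19ARF) changed by 1.59 ± 0.26. Of 9 G1 cyclins and their kinases, 6 rose and 2 fell with the age label in each genotype, with Ccnd1 (cyclin D1) at 1.36 ± 0.11 in knock-in and 1.42 ± 0.11 in wild-type, and Ccnd2 at 1.67 ± 0.24 and 1.39 ± 0.23. Of 17 genes of the RB, E2F, DREAM and MYB families, 5 fell and none rose with the treatment label in knock-in, among them Mybl2 (-0.67 ± 0.15) and the repressor E2f7 (-1.22 ± 0.28). With the age label Rbl1 (p107), of the RB family, changed by 1.39 ± 0.06 in knock-in and 1.22 ± 0.06 in wild-type.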

How the data were processed

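RNA was sequenced from 63 libraries of peritoneal macrophages in 16 groups. Poly-A RNA and a directional kit were used, per the labels' protocols, and reads were aligned with STAR 2.7.9a to GRCm39, with DESeq2 1.40.2 also named, per the submitters' processing notes. The counting program, and whether it used strand, is not given in the sources used here. Per gene, the deposited table holds whole-number counts and the authors' FPKM values, which were proportional to the counts within a gene and served here only for levels between genes.

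All 63 libraries entered 1 edgeR 4.0.16 quasi-likelihood fit (R 4.3.3, limma 3.58.1) with TMM factors of 0.886 to 1.23, 16 group means and contrasts over strata. Of 56748 genes, 17641 had no count and 22147 passed edgeR's filter on low counts, with 99.992% of counts. P-values were adjusted by Benjamini-Hochberg over all genes within a contrast, at 0.05. CPM use library sizes after TMM, and log2 CPM a prior count of 2. Interaction contrasts by stratum were added after the results by stratum were seen. The test was tested on simulated counts.

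Alternatives were DESeq2 1.42.0 (test or size factors; NA adjusted p left NA), no filter, a replicate block, and sets of libraries left out. Libraries with like use of immunoglobulin V segments (16 of 102 pairs within a group, r over 0.4) were also summed, which left 49 samples. Across the age label, 17 of 97 pairs with unlike replicate numbers and 8 of 26 with like numbers had r over 0.4, up to 0.957. Across the treatment label 0 of 97 and 1 of 26 did. Pairs across groups were not summed, and whether they share animals or cells was not tested. The summing and the omission of the 2 libraries with extreme member means were chosen after seeing the data. Deviations from the group means were somewhat more alike between same-numbered libraries. Across the age label their median correlation was 0.160, against -0.048 for unlike numbers, and across the treatment label 0.067 against -0.019. Not all same-numbered pairs were alike, so replicate numbers were not taken as pairs and no block stands in the fit.

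Members and lists were chosen with earlier results of these data known. Values are given for 10 members named by role and, per contrast, for up to 4 called members of largest change each way; of other lists, up to 4 genes by adjusted p, with Cdkn1a, Ccnd1, Ccnd2 and Myc always examined. Other named members were chosen after their values were seen. Promoter windows come from RefSeq tables and gene overlaps from a GENCODE annotation, both of GRCm38. This is another build than that of the files, and both were matched by symbol.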

Additional observations from a re-analysis of the deposited data

Results flagged for a closer look

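Replicate 1 of the untreated-labelled old-labelled wild-type females stood far below the rest of its group, with a mean over the 41 members of 1.93 log2 CPM, against 3.22 to 3.69 in the other 4 libraries. It was the only far sample among 88 groups of values tested. Chance gives about 1 in 20, so far samples were no more frequent than chance gives.

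The treatment contrast differed between knock-in and wild-type for 11 members, against 5.58% of all genes lower and 6.36% higher. The count became 3 without replicate 4 of the old-labelled untreated-labelled knock-in males. No member was called when libraries with like antigen receptor segment use were summed. The differences, knock-in minus wild-type on the log2 scale, were -0.71 for Cdc6, -0.37 for Mcm4, -0.84 for Ccnb1, -0.60 for Aurka, -0.97 for Bub1, -0.97 for Top2a, -0.95 for Mki67, -0.82 for Cenpe, -1.41 for Cenpf, -0.96 for Prc1 and -1.25 for Hmmr. In young-labelled females alone, in a test added after the counts by stratum were seen, the differences were -1.61 for Cdc6, -1.14 for Mcm5, -1.22 for Ccne1, -2.19 for Ccnb1, -1.31 for Aurka, -1.67 for Aurkb, -0.74 for Bub1b, -2.07 for Cdc20, -1.48 for Mki67 and -2.43 for Cenpf. There 5.36% of all genes were called lower and 6.05% higher. In wild-type females the treatment contrast of Ccne1 differed by -1.25, old-labelled minus young-labelled, in another added test, against 1.54% of all genes lower and 0.244% higher.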

How the results depend on the processing

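The count of members called with the treatment label in knock-in lay between 37 and 40 under the other analyses and sets of libraries tried, and between 34 and 39 with each library left out in turn (34 without replicate 1 of IFN-labelled young-labelled knock-in females). The genotype by treatment count of 11 became 18 with DESeq2 size factors, 24 with the DESeq2 test, 17 without the 3 libraries with conflicting treatment labels, 24 without 4 libraries that stood apart in earlier results, and 0 with libraries of like V segment use summed; it was 3 to 22 with each library left out, at 3 without replicate 4 of old-labelled untreated-labelled knock-in males and 22 without replicate 5 of old-labelled untreated-labelled wild-type males, and 21 libraries moved it over 1.5 times. The 5 calls of the treatment label in wild-type became 2 without the 4 libraries, 9 without the 2 libraries with extreme member means and 2 with like libraries summed (2 to 6 with each left out). The 8 of sex became 2 without the 3 conflicting libraries, 14 without the 2 extreme ones, 2 with like libraries summed and 22 with the replicate block (5 to 16 with each left out). The age label gave 14 to 21 calls in knock-in and 17 to 23 in wild-type with each left out. For the genotype, the mean over strata gave 1 call with DESeq2 (0 to 1 with each left out). In untreated-labelled old-labelled females 0 calls became 8 without the 2 extreme libraries. In IFN-labelled young-labelled females 1 call became 0 with no filter, without the 4 libraries or with like libraries summed, and 2 without the 2 extreme ones (0 to 1 with each left out). In untreated-labelled young-labelled females 0 became 1 without the 4, 2 without the 2, 5 with the replicate block and 1 with DESeq2 (0 to 1 with each left out). In IFN-labelled old-labelled males 0 became 1 with DESeq2 size factors, 2 without the 4, 1 without the 2, 1 with the replicate block and 1 with DESeq2. The remaining genotype strata and interactions stayed at 0 with each library left out. The age label calls in untreated-labelled knock-in females turned from mostly higher to mostly lower, with 20 called (7 higher, 13 lower) without the 2 extreme libraries and 18 (6 higher, 12 lower) without replicate 4 of the old-labelled group. The cause of these shifts was not tested. Under the replicate block the counts were 37 and 7 for the treatment label in knock-in and wild-type, 19 and 21 for the age label and 10 for genotype by treatment label. Deviations of same-numbered libraries correlated at -0.585 to 0.474 across the age label (17 of 26 pairs over 0.1, against 31 of 97 with unlike numbers). Among 50 results of named genes none reversed; with like libraries summed 15 lost their call, and over 1923 fits without a library 128 did. The genotype stratum of old-labelled untreated-labelled males has no value without the 3 conflicting libraries. No libraries agreed within sampling noise, so none were joined for that reason. Depth limits the low members most, such as Cenpf.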

Other observations

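Genes that govern macrophage growth were called in both directions. Of 13 such genes, 1 rose and 2 fell with the treatment label in knock-in, against 3.35% of all genes higher and 4.42% lower: Klf2, a factor of quiescent leukocytes, changed by 0.36 ± 0.11, and Csf1, the macrophage growth factor, and Mycn changed by -0.75 ± 0.19 and -1.70 ± 0.47. With the age label 4 rose and 4 fell in knock-in and 4 rose and 5 fell in wild-type, against 28.1% of all genes higher and 32.7% lower in knock-in and 28.4% and 33.8% in wild-type, so the share called is near that of all genes. Il4ra, the receptor chain for the cytokine that drives division of resident macrophages, changed by 1.22 ± 0.06 in knock-in and 1.13 ± 0.06 in wild-type. Maf, which restrains self-renewal of macrophages, changed by -1.39 ± 0.11 and -1.40 ± 0.11, and Myc changed by -0.36 ± 0.09 and -0.42 ± 0.09. Of 12 targets of p53, 5 rose and 5 fell with the age label in each genotype, with Phlda3 at -1.81 ± 0.11 in knock-in and -1.65 ± 0.11 in wild-type.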
